A study of Mus musculus with 12 samples.

Results

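Embryoid bodies cultured for 21 days were compared with undifferentiated embryonic stem (ES) cells on 3 of the 12 arrays of a mouse time course. The day 21 arrays were found by their sample titles, and every one of the 10689 features tested on them is described here: 9212 genes, whose probes were averaged, and 1477 features with several gene symbols or none. Each array held RNA of 2 samples in 2 dyes. One was R1 mouse ES cells, maintained on gelatin in medium with leukemia inhibitory factor and serum. The other was embryoid bodies (EB), clumps of ES cells left to differentiate on their own, which had been dissociated and plated in serum for 21 days. Groups of 3 arrays each at days 4, 8 and 15 of the same culture served as earlier time points and helped to estimate the spread between arrays. R1 is 1 cell line, no genotype other than that of the line was named, and whether separate cultures were used for the 3 arrays is not stated. P-values therefore rest on how these arrays varied, and that spread may be technical.

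A value is the deposited normalized log ratio of the 2 channels of an array, read as log2 by convention, so that 1 is a doubling and -1 a halving. Values above 0 are taken as higher in EB, a likely direction that the labels do not settle: the labelling protocols put Cy5 on EB RNA, whereas the sample titles and the dye fields point the other way. In an earlier examination of these values, genes of ES cells and of endoderm decided it, so their direction here counts for nothing in its favour. Were it wrong, every higher and lower would be exchanged. Dyes were not swapped, and a gene-specific dye effect would remain in every ratio. ES RNA was in every array and was never hybridised on its own; the ES channel thus counts as 1 control sample, and the spread of the control is not part of the test.

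Embryoid bodies form tissues of all germ layers in an unordered way. Their outer layer resembles the visceral endoderm of the yolk sac, an epithelium that makes many of the serum proteins later made by liver. Mesoderm inside them gives rise to beating heart muscle, vessels, blood cells and matrix-secreting mesenchyme. Leaving the ES state entails the loss of a network of transcription factors around Pou5f1, Nanog and Sox2, and ES cells are known for a short cell cycle with little time spent in its first gap phase.

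Of the 10689 features, 1999 (18.7%) were called at day 21, with an adjusted p under 0.05 in limma's moderated test of the day 21 mean against 0. Of these, 938 (8.78% of all) were higher in EB and 1061 (9.93%) lower. Among the 9212 genes with a symbol, the background for the gene lists below, 9.23% were called higher and 10.1% lower. A mean of at least 1 in size was reached by 193 called features (1.81%), 126 higher and 67 lower, and a mean of at least 2 by 22. Of the 1783 called genes, 1772 had the same sign on all 3 arrays. Array 3 stood apart from the other two day 21 arrays. Across features it correlated with arrays 1 and 2 by 0.599 and 0.559, against 0.773 between arrays 1 and 2. At 96 features without a gene name, which sit at 4 recurring positions of the table, the median was -1.3 on array 3 and -0.0144 and 0.064 on arrays 1 and 2. Of the arrays of the other days, 4 had medians between -1.04 and -1.54 there as well. They were array 3 of days 4, 8 and 15 and array 2 of day 8. What sets these arrays apart is not given in the labels. Without array 3 there were 1802 calls, without array 1 there were 753 and without array 2 there were 872. Of all features, 3.08%, 3.67% and 8.02% were called higher without arrays 1, 2 and 3 in turn, and 3.97%, 4.49% and 8.84% lower. These shares are the background for the list counts without each array. After scaling all arrays to 1 spread the count was 971. Where a named gene lost its call without 1 of the arrays or under another scaling, this stands with its paragraph.

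Afp, the main serum protein of the fetus, had the largest mean, at 4.10, 3.34 and 3.35 on arrays 1, 2 and 3, or 3.60 ± 0.44 (SD, n = 3 here and below, adjusted p = 0.000205). At the other end Slc7a3, a transporter of basic amino acids, had -1.67, -4.47 and -0.94, or -2.36 ± 1.86 (adjusted p = 0.00676). The Slc7a3 mean rests largely on array 2 and was -1.31 (adjusted p = 0.0394) without it, and in a fit of the day 21 arrays alone it was not called. Most of the 20 largest positive means belong to secreted or cellular proteins of visceral endoderm and liver. Others are Postn and Col1a2, proteins of connective tissue, and Dlk1 and Igf2, imprinted genes of fetal growth. Nrp1, a receptor for semaphorins and vascular endothelial growth factor, had 2.12, 2.37 and 2.64, or 2.37 ± 0.26 (adjusted p = 0.00042). Itm2a, a membrane protein of developing cartilage and muscle, had 2.35, 2.0 and 2.36, or 2.24 ± 0.20 (adjusted p = 1.81e-05). Vnn1, a pantetheinase, had 1.32, 3.05 and 1.97, with array 2 well above the others, and a mean of 2.11 ± 0.87 (adjusted p = 0.000295). All 3 arrays lay above 0 for each of these genes.

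**Figure D1:**
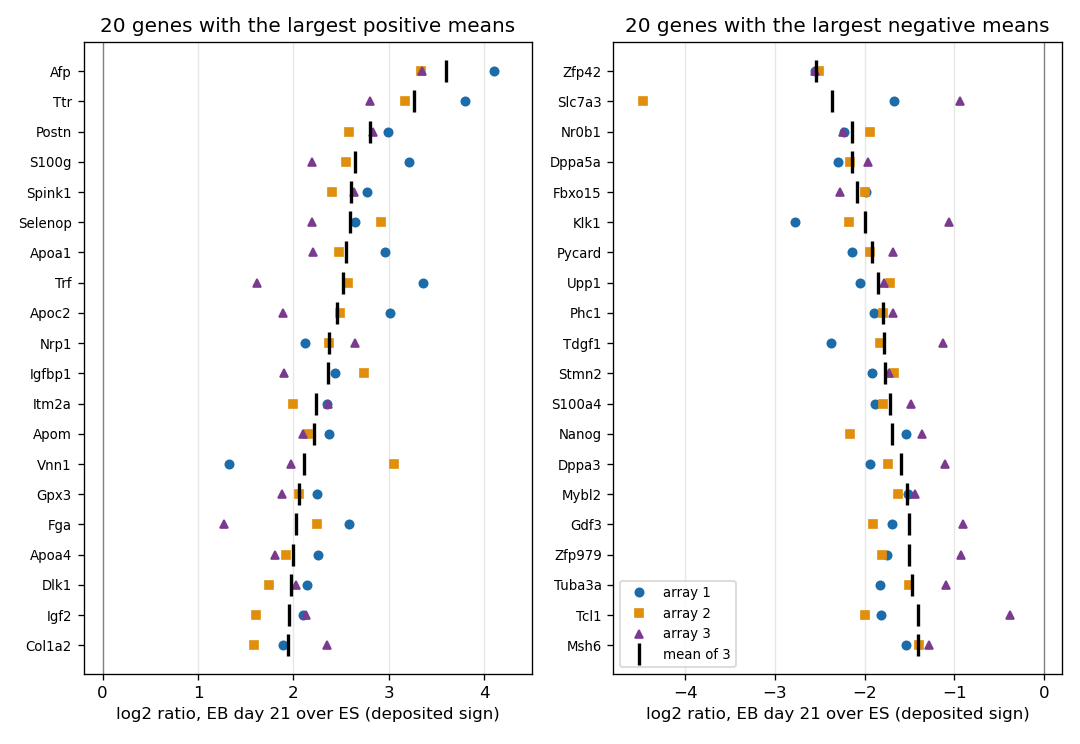
Each row is a gene and each point its log2 ratio, EB day 21 over ES, on array 1, 2 or 3, with the mean as a bar; the left panel has the 20 largest positive means and the right panel the 20 largest negative means among genes that were called and had a single sign. Positive means run down to 1.94 for Col1a2 from 3.60 for Afp, and the point of Slc7a3 at -4.47 on array 2 lies far from its other two.

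The secreted proteins of visceral endoderm and fetal liver were the group with the highest share of calls: 28 of 36 measured members were called higher and 1 lower, with a median of 1.01, against 0.00 over all features. In fits without arrays 1, 2 and 3 in turn, 16, 18 and 27 members were called higher. As ratios in a mixed culture, these values cannot tell more cells of a type from more RNA per cell, and the same holds for every group below. Beyond Afp, the apolipoproteins moved together. Apom had 2.37, 2.15 and 2.10 on arrays 1 to 3, or 2.21 ± 0.14 (adjusted p = 8.11e-05), and Apoa4 had 2.26, 1.92 and 1.81, or 2.0 ± 0.24 (adjusted p = 9.62e-06). Apoc2, the cofactor of lipoprotein lipase, had 3.01, 2.49 and 1.89, or 2.46 ± 0.56 (adjusted p = 0.00458). In each, array 1 was highest and array 3 lowest. S100g, an intracellular calcium-binding protein, had 3.21, 2.55 and 2.19, or 2.65 ± 0.52 (adjusted p = 0.000171), and Spink1, a trypsin inhibitor, had 2.77, 2.40 and 2.63, or 2.60 ± 0.18 (adjusted p = 0.000188). Trf, the iron carrier of serum, was spread more widely, with 3.36, 2.57 and 1.62 and a mean of 2.52 ± 0.87 (adjusted p = 0.00119). Apoc2 was not called without array 1 (mean 2.19).

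Alb, the main serum protein after birth, had 1.44, 1.18 and 0.12, a mean of 0.92 ± 0.70 (adjusted p = 0.00385), and was near 0 on array 3. Its 2 probes differed, with means of 0.28 and 1.55. Amn, a subunit of the endocytic receptor of visceral endoderm, had 0.79, 0.55 and 0.25 (adjusted p = 0.0446). Serpinf1, the member nearest to 0, had -0.17, -0.08 and 0.37 (adjusted p = 0.924). The single member called lower was Fetub, a liver protein of the cystatin family named after its value was seen, with -1.0, -0.52 and -0.10 (adjusted p = 0.0415). Array 3 was the lowest of the 3 arrays in 27 of the 36 members (75%), against 38.5% of all features. Alb was not called without array 1 (mean 0.65) or in a fit of day 21 alone. Amn was not called without array 1 (mean 0.40) or array 2 (mean 0.52), on leaving out any of 4 of the 9 arrays of the other days singly, with the replicate block or after scaling or quantile normalization of the arrays. Fetub was not called without array 1 (mean -0.31) or array 2 (mean -0.55), on leaving out any of 4 of the 9 arrays of the other days singly, after scaling or quantile normalization of the arrays or in a fit of day 21 alone.

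Transcription factors of endoderm were called less often than the list of visceral endoderm and fetal liver genes. Of 22 measured members 1 was called higher and 1 lower (4.55% each), against 9.23% and 10.1% of all genes. The list median was 0.12, and 18 of the 22 means lay above 0, against 5408 of all 10689 features. Sox17, needed for definitive and extraembryonic endoderm, was the one called higher, with 0.78, 0.29 and 0.63 and a mean of 0.57 (adjusted p = 0.00534). Hhex, a homeobox factor of liver bud and blood vessels named after its value was seen, was the one called lower, with -0.50, -0.12 and -0.24 (adjusted p = 0.0478). Gata6, which drives the formation of primitive endoderm, had 0.39, 0.36 and 0.18 (adjusted p = 0.05). Eomes, a T-box factor of the early embryo, had 0.21, 0.29 and 0.64 (adjusted p = 0.0585) and Onecut1, a hepatocyte factor, -0.33, -0.17 and -0.39 (adjusted p = 0.0943). None of these 3 passed the threshold, Gata6 by little, and Cdx2, a factor of hindgut and trophectoderm, was nearest to 0 with -0.08, 0.02 and 0.08. Without arrays 1, 2 and 3 in turn, 0, 1 and 3 members of the list were called higher and 0 lower each time. A fit that included a term for the array set called 4 members higher (18.2%, against 9.57% of all features) and 0 lower. Sox17 was not called without array 1 (mean 0.46) or after scaling of the arrays. Hhex was not called without array 1 (mean -0.18), array 2 (mean -0.37) or array 3 (mean -0.31), on leaving out any of 6 of the 9 arrays of the other days singly, with the replicate block, with the array set as a term, after scaling or quantile normalization of the arrays or in a fit of day 21 alone.

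The 250 bases upstream of the start of each gene (RefSeq, GRCm38.p6) were searched on both strands for GTTAAT, the half-site of the homeodomain factor HNF1, which binds many promoters of liver genes. Of the 28 called members of the endoderm list, 23 had a promoter in the table, and 10 of these (43.5%) held the half-site, against 7.49% of the 27025 genes in the table and 5.88% of the 7266 measured genes in it. The 10 were Afp, Alb, Apoc2, Apoe, Serpina1b, Fga, Fgb, Dab2, Igfbp1 and Vtn. A match is a description of these letters, not of binding. The upstream sequences of 3 of them, chosen by eye among those that hold the match and lie among the 20 largest means (Apoc2 is another), are printed 5′ to 3′ along the gene's strand with the match in capitals; ATTAAC is the same half-site on the other strand. They are those of Afp at chr5:90490464-90490713 (+ strand), Fga at chr3:83025903-83026152 (+ strand) and Igfbp1 at chr11:7197537-7197786 (+ strand). The match begins 105, 43 and 56 bases upstream of the start.
Afp: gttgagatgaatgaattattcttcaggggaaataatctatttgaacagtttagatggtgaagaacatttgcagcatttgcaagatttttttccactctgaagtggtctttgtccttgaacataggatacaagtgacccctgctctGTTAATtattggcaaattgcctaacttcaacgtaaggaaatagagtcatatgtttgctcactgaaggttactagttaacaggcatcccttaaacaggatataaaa
Fga: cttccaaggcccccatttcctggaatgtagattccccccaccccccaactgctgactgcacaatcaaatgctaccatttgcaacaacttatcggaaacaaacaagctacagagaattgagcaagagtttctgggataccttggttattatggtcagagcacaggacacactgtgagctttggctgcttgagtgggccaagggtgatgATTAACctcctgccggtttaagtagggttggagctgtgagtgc
Igfbp1: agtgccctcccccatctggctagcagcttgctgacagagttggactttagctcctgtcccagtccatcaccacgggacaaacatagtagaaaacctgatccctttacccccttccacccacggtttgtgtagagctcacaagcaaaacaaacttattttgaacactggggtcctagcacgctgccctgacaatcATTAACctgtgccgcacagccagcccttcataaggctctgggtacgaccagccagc

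The complement and coagulation genes, most of them products of liver cells, were called higher in 18 of 27 and lower in 0, with a median of 0.77. Without arrays 1, 2 and 3 in turn the count was 10, 11 and 18. Fga, the fibrinogen alpha chain whose promoter is printed with the endoderm genes, had 2.58, 2.25 and 1.27, or 2.03 ± 0.68 (adjusted p = 0.000809), and its probes averaged 1.51 and 2.56. F2, the thrombin precursor, had 1.92, 2.15 and 1.18, or 1.75 ± 0.51 (adjusted p = 0.00115). Serpind1, an inhibitor of thrombin, had 2.75, 2.34 and 0.52, or 1.87 ± 1.19 (adjusted p = 0.00185). Array 3 was the lowest for these 3 genes, as it was in 21 of the 27 members (77.8%). Kng1, the kininogen precursor of bradykinin, had 1.84, 1.13 and 1.54, or 1.5 ± 0.36 (adjusted p = 2.85e-05). Clu, an extracellular chaperone, averaged 1.37 ± 0.24 (adjusted p = 0.000168) and Cfb, a protease of the alternative complement pathway, 1.22 ± 0.26 (adjusted p = 0.000241). C4b, a complement component, was nearest to 0, with -0.03, 0.06 and 0.05.

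Lysosomal and extracellular proteases and their inhibitors were called higher in 17 of 39 and lower in 2, and the median was 0.40, at 0.43, 0.35 and 0.41 on the 3 arrays. Lamp2, a protein of the lysosomal membrane, had 1.44, 1.34 and 1.25, or 1.34 ± 0.10 (adjusted p = 6.09e-05). Ctsb, a lysosomal cysteine protease, had 1.15, 0.84 and 1.20, or 1.06 ± 0.19 (adjusted p = 0.0014), and Ctsa, a lysosomal carboxypeptidase, averaged 0.86 ± 0.13 (adjusted p = 0.00262). The arrays of these genes lay close together. Ctsh, another cathepsin, had 1.41, 1.14 and 0.69 (adjusted p = 0.0238), with probe means of 0.66 and 1.5. Lgmn, an asparagine-specific protease, had 0.89, 0.57 and 0.73 and did not pass (adjusted p = 0.13). The 2 members called lower, named after their values were seen, were Timp1, an inhibitor of matrix metalloproteinases, at -0.90, -0.74 and -0.54, and Mmp11, a metalloproteinase, at -0.25, -0.26 and -0.32. The counts without arrays 1, 2 and 3 were 8, 9 and 13 higher. Ctsh was not called without array 1 (mean 0.92) or array 2 (mean 1.05) or after scaling or quantile normalization of the arrays. Timp1 was not called without array 1 (mean -0.64). Mmp11 was not called without array 1 (mean -0.29), array 2 (mean -0.29) or array 3 (mean -0.25), on leaving out any of 4 of the 9 arrays of the other days singly, after scaling or quantile normalization of the arrays or in a fit of day 21 alone.

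Interstitial matrix genes were called higher in 28 of 47 and lower in 0, with a median of 0.55; without arrays 1, 2 and 3 the counts were 17, 21 and 25. Col5a1, the fibril-starting collagen V chain, had 1.65, 1.77 and 2.0, or 1.81 ± 0.18 (adjusted p = 5.32e-05). Lum, a proteoglycan that spaces collagen fibrils, had 2.08, 1.47 and 1.69, or 1.75 ± 0.31 (adjusted p = 9.76e-06), and Dcn, a related proteoglycan, had 1.51, 1.07 and 1.59, or 1.39 ± 0.28 (adjusted p = 0.00147). Col3a1 averaged 1.29 ± 0.12 (adjusted p = 8.5e-07) over arrays that lay close together, but its probes averaged 0.20, 0.84 and 2.85, so the size of its change depends on the probe. The same was true of Col1a1, with probe means of 0.19, 0.71 and 2.15. Fbln2, a fibulin, was nearest to 0 with -0.10, 0.18 and -0.07.

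Basement membrane genes, which line epithelia and vessels, were called higher in 5 of 18, with a median of 0.16. Tinagl1, a matrix protein of basement membranes, had 2.18, 1.74 and 1.64, or 1.85 ± 0.29 (adjusted p = 5.22e-05), and Sparc, a collagen-binding glycoprotein, had 1.31, 0.96 and 1.24, or 1.17 ± 0.19 (adjusted p = 0.00235). Col4a1, a collagen IV chain, had 0.83, 0.78 and 0.59 (adjusted p = 0.000922) over probes that averaged 0.03, 0.85 and 1.31. The laminin chains differed from one another in their call, with Lamb2 at 0.80, 0.49 and 0.33 (adjusted p = 0.0148) and Lamb1 at 0.41, 0.48 and -0.06 (adjusted p = 0.254). Adhesion genes were called higher in 15 of 49 and lower in 2, and higher in 7, 8 and 14 without arrays 1, 2 and 3. Gpc3, a heparan sulfate proteoglycan of the fetal cell surface, had 1.56, 1.63 and 1.69, or 1.63 ± 0.07 (adjusted p = 0.000202), and Pmp22, a membrane protein of myelin and epithelia, averaged 1.29 ± 0.28 (adjusted p = 0.00122). Tm4sf1, a tetraspanin-like membrane protein, was lower at -1.45, -1.65 and -0.78 (adjusted p = 0.0174). Cd44, the hyaluronan receptor, was nearest to 0 with -0.08, 0.06 and -0.01. Lamb2 was not called without array 1 (mean 0.41) or array 2 (mean 0.57). Tm4sf1 was not called without array 1 (mean -1.22) or array 2 (mean -1.12) or after scaling of the arrays.

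Imprinted genes, expressed from 1 parental allele and many of them regulators of fetal growth, were called higher in 10 of 26 and lower in 0, with a median of 0.21. The count was 9, 9 and 10 without arrays 1, 2 and 3. Dlk1, an inhibitor of fat cell formation, had 2.14, 1.74 and 2.03, or 1.97 ± 0.21 (adjusted p = 8.5e-07). Mest, a gene of growing mesoderm, had 2.01, 1.77 and 1.74, or 1.84 ± 0.14 (adjusted p = 8.5e-07), and Ndn, a growth suppressor of neurons, had 1.49, 1.34 and 1.64, or 1.49 ± 0.15 (adjusted p = 8.25e-05). Igf2 had 2.10, 1.61 and 2.13, or 1.95 ± 0.29 (adjusted p = 1.92e-05), and the neighbouring untranslated RNA H19, expressed from the other parental allele, had 1.10, 1.55 and 1.79, or 1.48 ± 0.35 (adjusted p = 0.00231). Every array of these 5 genes lay above 1. Snrpn, the member nearest to 0, had -0.06, 0.02 and 0.06.

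In the insulin-like growth factor axis 6 of 16 genes were called higher and 1 lower. Igfbp1, a liver-made binding protein whose promoter holds the HNF1 half-site printed with the endoderm genes, had 2.43, 2.74 and 1.90, or 2.36 ± 0.42 (adjusted p = 7.8e-05). Igfbp3, the main carrier in serum, averaged 1.18 ± 0.14 (adjusted p = 0.00213) and Igfbp4, another binding protein, 0.77 ± 0.17 (adjusted p = 0.000696), whereas Igfbp5 had -0.08, 0.14 and -0.07 (adjusted p = 0.983). Igf2r, the receptor that clears Igf2, had 1.05, 0.81 and 0.20 (adjusted p = 0.00937). Htra1, a secreted protease that cleaves such binding proteins, was the member called lower, at -1.16, -1.19 and -0.14 (adjusted p = 0.0237). Igf2r was not called without array 1 (mean 0.50) or array 2 (mean 0.62) or in a fit of day 21 alone. Htra1 was not called without array 1 (mean -0.67) or array 2 (mean -0.65), after scaling of the arrays or in a fit of day 21 alone.

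Pluripotency and ES cell genes were called lower in 22 of 34 and higher in 1, with a median of -0.67, at -0.81, -0.67 and -0.49 on arrays 1 to 3. Without arrays 1, 2 and 3 the lower count was 13, 16 and 20. Nanog, a homeobox factor of the inner cell mass, had -1.54, -2.16 and -1.36, or -1.69 ± 0.42 (adjusted p = 7.91e-05). Pou5f1, the central factor of the network, had -0.94, -0.66 and -0.61, or -0.74 ± 0.18 (adjusted p = 0.00411), and its partner Sox2 had -1.24, -0.92 and -0.88, or -1.01 ± 0.20 (adjusted p = 0.000197). All arrays of these 3 genes lay below 0. Tdgf1, a coreceptor of Nodal, had -2.38, -1.83 and -1.13, or -1.78 ± 0.63 (adjusted p = 0.00395). Gdf3, a ligand of the same pathway, had -1.69, -1.91 and -0.90, or -1.5 ± 0.53 (adjusted p = 0.000675), and Tcl1, a coactivator of the kinase Akt, had -1.82, -2.0 and -0.38, or -1.40 ± 0.89 (adjusted p = 0.00887). In these 3 genes array 3 was nearest to 0, as it was the highest array in 24 of the 34 members (70.6%). Fgf4, a growth factor of ES cells, did not pass, with -0.50, -0.42 and 0.04 (adjusted p = 0.242), and Mycn, a Myc family factor, was nearest to 0 with 0.01, -0.01 and 0.02. The member called higher, named after its value was seen, was the homeobox gene Rhox5, with 0.47, 0.52 and 0.54 (adjusted p = 0.0235). Pou5f1 was not called without array 1 (mean -0.64). Tdgf1 was not called without array 1 (mean -1.48). Tcl1 was not called without array 1 (mean -1.19) or array 2 (mean -1.10). Rhox5 was not called without array 1 (mean 0.53), array 2 (mean 0.50) or array 3 (mean 0.50) or after scaling or quantile normalization of the arrays.

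Of the 22 genes called lower, 16 had a promoter in the table, and 3 of them, Nanog, Sox2 and Zfp42, held the octamer-family sequence ATGCAAA bound by POU factors such as Pou5f1 within 250 bases upstream (18.8%, against 4.65% of all genes in the table). The sequences of Nanog, at chr6:122707239-122707488 (+ strand), and Zfp42, at chr8:43307010-43307259 (- strand), are shown because both genes are among the 20 largest decreases; capitals mark the match, read here on the opposite strand as TTTGCAT. It begins 75 bases upstream of the Nanog start and 185 bases upstream of the Zfp42 start. Zfp42, a zinc finger gene used as an ES cell marker, had -2.55, -2.51 and -2.55 on the 3 arrays, the narrowest spread among the 20 largest decreases.
Nanog: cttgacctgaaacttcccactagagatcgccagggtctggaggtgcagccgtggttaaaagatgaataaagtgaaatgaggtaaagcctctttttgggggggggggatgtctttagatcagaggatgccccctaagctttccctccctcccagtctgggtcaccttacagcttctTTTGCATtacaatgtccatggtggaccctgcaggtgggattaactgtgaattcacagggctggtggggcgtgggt
Zfp42: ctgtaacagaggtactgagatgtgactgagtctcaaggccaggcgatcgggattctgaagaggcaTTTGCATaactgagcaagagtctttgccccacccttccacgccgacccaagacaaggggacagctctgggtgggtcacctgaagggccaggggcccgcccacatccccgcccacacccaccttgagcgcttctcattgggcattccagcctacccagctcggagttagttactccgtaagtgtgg

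Germ cell genes, several of which ES cells also express, were called lower in 8 of 20 and higher in 0, with a median of -0.32; without arrays 1, 2 and 3 the count was 2, 4 and 8. Dppa3, a maternal factor that protects methylation marks, had -1.94, -1.74 and -1.10, or -1.59 ± 0.44 (adjusted p = 0.00109), and Sycp3, a structural protein of meiotic chromosomes, had -1.28, -1.43 and -0.50, or -1.07 ± 0.50 (adjusted p = 0.00053). Dazl, an RNA-binding protein of germ cells, had -0.87, -1.10 and -0.53 (adjusted p = 0.0264). Tdrd1, a protein of the germ cell granules, was nearest to 0 with -0.03, -0.04 and -0.10. Chromatin factors were called lower in 12 of 39 (30.8%) and higher in 6 (15.4%), against 10.1% and 9.23% of all genes. Without arrays 1, 2 and 3 these were 4, 4 and 12 lower and 1, 1 and 4 higher. Without array 1 or array 2 the share higher was 2.56%, below the 3.08% and 3.67% of all features. The share lower was 10.3% in both fits, against 3.97% and 4.49%. Phc1, a Polycomb protein, had -1.90, -1.79 and -1.68, or -1.79 ± 0.11 (adjusted p = 1.93e-06). Hells, a chromatin remodeller needed for DNA methylation, had -0.95, -1.07 and -1.25, or -1.09 ± 0.15 (adjusted p = 4.26e-05), and Eed, a core subunit of the Polycomb complex that methylates histone H3, had -0.70, -0.75 and -0.79, or -0.75 ± 0.04 (adjusted p = 0.000274). The 3 arrays of each of these lay close together. The de novo methylation genes did not: Dnmt3b had -1.51, -1.32 and -0.23 and its cofactor Dnmt3l -2.15, -1.62 and -0.08, both near 0 on array 3. Hmgb3, a chromatin protein of stem and blood cells, was higher with 0.79, 0.46 and 1.12 (adjusted p = 0.0127). Smarca4, a remodeller ATPase, was nearest to 0 with -0.09, -0.04 and 0.10. Dazl was not called without array 1 (mean -0.82) or array 2 (mean -0.70) or after scaling or quantile normalization of the arrays. Dnmt3b was not called without array 1 (mean -0.77) or array 2 (mean -0.87), after scaling or quantile normalization of the arrays or in a fit of day 21 alone. Dnmt3l was not called without array 1 (mean -0.85) or array 2 (mean -1.12), after scaling of the arrays or in a fit of day 21 alone. Hmgb3 was not called without array 1 (mean 0.79) or array 3 (mean 0.63) or after scaling or quantile normalization of the arrays.

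**Figure D2:**
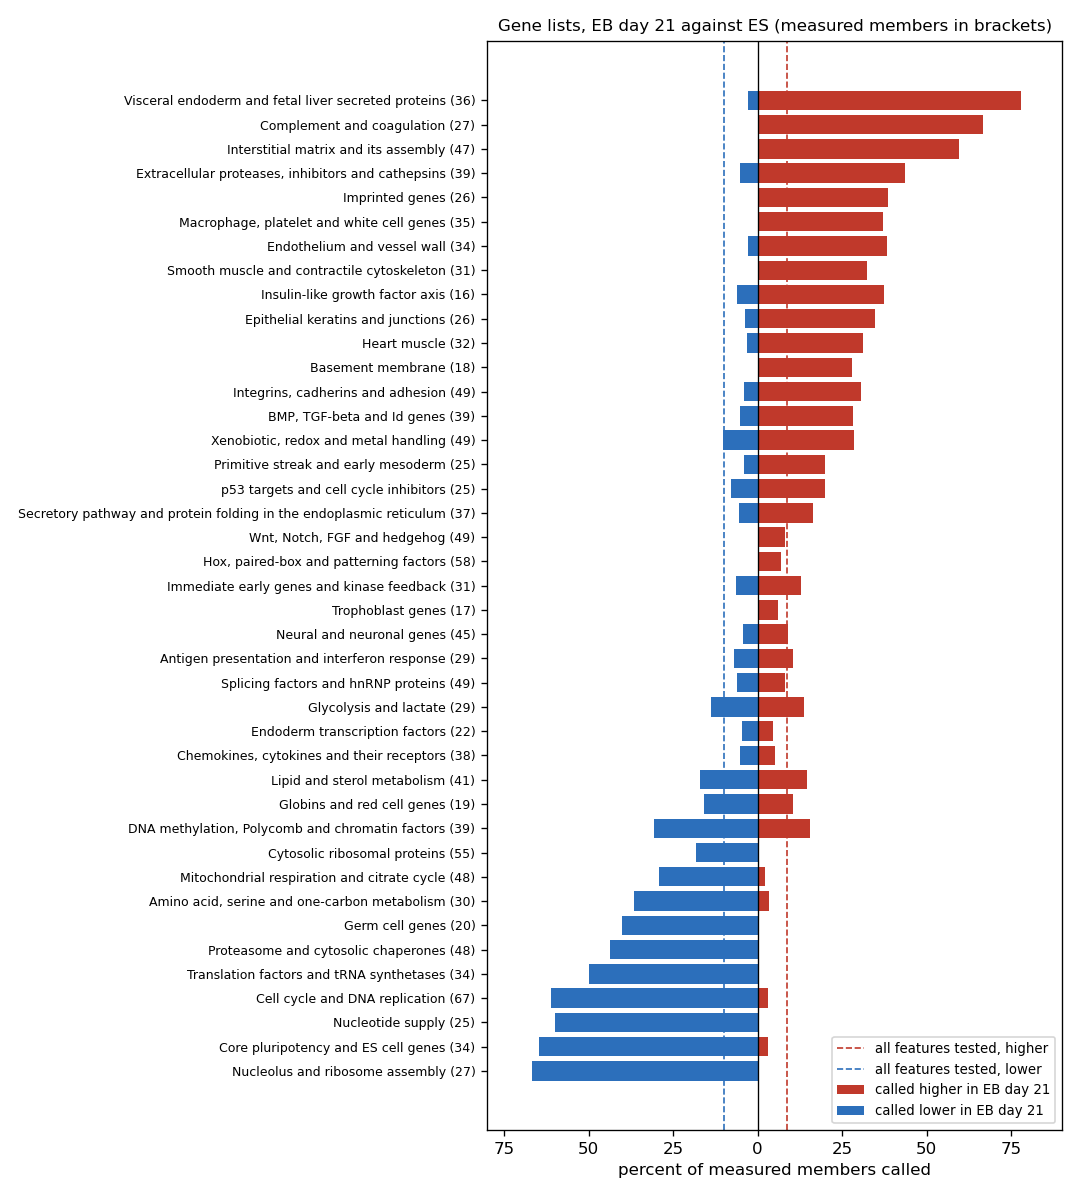
Bars give, for each of the 41 gene lists, the percent of measured members called higher (right) or lower (left) in EB at day 21, and dashed lines the same percent over all features tested, 8.78 higher and 9.93 lower. Visceral endoderm, complement and interstitial matrix reach farthest to the right, and nucleolus, pluripotency and cell cycle farthest to the left.

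Heart muscle genes were called higher in 10 of 32 and lower in 1, with a median of 0.20. The count was 2, 3 and 9 without arrays 1, 2 and 3. Myl4, the atrial and embryonic light chain of myosin, had 2.28, 1.25 and 0.34, or 1.29 ± 0.97 (adjusted p = 0.00884). Myl7, the atrial regulatory light chain, had 1.39, 1.55 and 0.36, or 1.10 ± 0.64 (adjusted p = 0.0093), and Myl2, its ventricular counterpart, had 1.59, 1.42 and 0.04, or 1.01 ± 0.85 (adjusted p = 0.0256). Array 3 was the lowest of the 3 in each light chain. Actc1, cardiac actin, was even across arrays with 0.51, 0.50 and 0.70, or 0.57 ± 0.11 (adjusted p = 0.00627). Myh6, the atrial myosin heavy chain, had 0.00, -0.25 and -0.09 (adjusted p = 0.467), Nppa, the atrial natriuretic peptide, -0.12, -0.18 and -0.21 (adjusted p = 0.167), and Ttn, the giant sarcomere protein, -0.13, 0.14 and -0.03. These 3 did not pass. Fabp3, the fatty acid binder of heart, was the member called lower, with -0.73, -0.78 and -0.75 (adjusted p = 0.00162). Myl4 was not called without array 1 (mean 0.80) or array 2 (mean 1.31) or in a fit of day 21 alone. Myl7 was not called without array 1 (mean 0.95) or array 2 (mean 0.88). Myl2 was not called without array 1 (mean 0.73) or array 2 (mean 0.81), after scaling of the arrays or in a fit of day 21 alone.

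All 10 heart genes called higher had a promoter in the table. Myl7, Myl3 and Actc1 held a CArG box, the site of serum response factor found in many muscle promoters, within 250 bases upstream (30%, against 1.62% of all genes). The sequences of Actc1, at chr2:114052876-114053125 (- strand), and Myl7, at chr11:5898783-5899032 (- strand), are shown because both are heart markers. The box, in capitals, begins 47 bases upstream of the Actc1 start and 61 bases upstream of the Myl7 start.
Actc1: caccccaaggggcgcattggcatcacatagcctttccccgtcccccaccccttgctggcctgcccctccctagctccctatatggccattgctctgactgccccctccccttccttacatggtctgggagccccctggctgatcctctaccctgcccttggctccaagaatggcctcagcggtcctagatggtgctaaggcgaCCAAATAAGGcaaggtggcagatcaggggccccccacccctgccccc
Myl7: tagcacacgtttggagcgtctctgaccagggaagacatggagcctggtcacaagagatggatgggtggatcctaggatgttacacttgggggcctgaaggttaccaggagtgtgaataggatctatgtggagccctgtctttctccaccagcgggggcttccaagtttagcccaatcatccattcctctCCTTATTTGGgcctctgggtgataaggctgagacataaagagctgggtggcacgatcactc

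Smooth muscle and cytoskeletal genes were called higher in 10 of 31 and lower in 0, and the counts without arrays 1, 2 and 3 were 8, 8 and 10. Tmsb4x, which binds actin monomers, had 1.06, 1.05 and 1.62, or 1.24 ± 0.33 (adjusted p = 2.08e-05). Vim, the intermediate filament of mesenchyme, had 0.87, 0.92 and 0.89, or 0.89 ± 0.03 (adjusted p = 0.00531), and Tpm1, a tropomyosin of heart and smooth muscle, 0.95, 0.83 and 0.83, or 0.87 ± 0.07 (adjusted p = 0.000456). Acta2, smooth muscle actin, had 0.97, 0.82 and 0.47 (adjusted p = 0.0262). S100a6, a calcium-binding protein of fibroblasts, had -1.36, -1.11 and -0.67, or -1.04 ± 0.35, just short of the threshold (adjusted p = 0.051), and Des, the muscle intermediate filament, was nearest to 0 with -0.09, 0.20 and -0.15. Acta2 was not called without array 1 (mean 0.65) or array 2 (mean 0.72) or after scaling or quantile normalization of the arrays.

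Endothelial and vessel wall genes were higher in 13 of 34 and lower in 1, with a median of 0.09; without arrays 1, 2 and 3 the count was 4, 6 and 12. Icam2, an adhesion molecule of endothelium and platelets, had 1.58, 1.03 and 0.51, or 1.04 ± 0.53 (adjusted p = 0.00157). Kdr, the main receptor of vascular endothelial growth factor, had 0.50, 0.48 and 0.26 (adjusted p = 0.00488), and Tie1, another endothelial receptor kinase, 0.34, 0.47 and 0.29 (adjusted p = 0.00843). The junction genes Cdh5 and Pecam1, taken here as endothelial markers, were near 0. Such a ratio means a level like that of the ES cells and does not show absence. Cdh5 had -0.11, -0.01 and 0.15 (adjusted p = 0.955) and Pecam1 0.15, -0.10 and 0.19 (adjusted p = 0.66). Nrp1 is in this list too and is also made by other cell types. Kdr was not called without array 1 (mean 0.37). Tie1 was not called without array 2 (mean 0.31).

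Macrophage, platelet and white cell genes were higher in 13 of 35 and lower in 0, with a median of 0.19, at 0.18, 0.14 and 0.32 on the 3 arrays. Without arrays 1, 2 and 3 the count was 9, 10 and 9. Fcgr3, an Fc receptor for immunoglobulin G, had 1.42, 1.32 and 1.12, or 1.28 ± 0.15 (adjusted p = 0.000282). Mrc1, the mannose receptor of tissue macrophages, had 0.73, 1.33 and 0.65, or 0.91 ± 0.37 (adjusted p = 0.0011), and C1qb, a complement subunit made by macrophages, had 0.81, 0.64 and 1.06, or 0.84 ± 0.21 (adjusted p = 0.000638). Ctss, a cathepsin of antigen-presenting cells, differed between arrays with 1.36, 0.45 and 2.34 (adjusted p = 0.00329). Pf4, a platelet chemokine, had 1.36, 1.16 and 0.33 (adjusted p = 0.00472), Tyrobp, a signalling adaptor of myeloid cells, 0.44, 0.32 and 0.61 (adjusted p = 0.00322), and Ptprc, the pan-leukocyte surface phosphatase, 0.10, -0.05 and 0.17 (adjusted p = 0.594). Array 3 was the highest of the 3 in 24 of the 35 members (68.6%). Pf4 was not called without array 1 (mean 0.75) or array 2 (mean 0.84). Ctss was not called in a fit of day 21 alone.

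Of 19 globin and red cell genes, 2 were called higher and 3 lower (10.5% and 15.8%), against 9.23% and 10.1% of all genes. Hbb-b2, an adult beta globin, had 1.75, 1.47 and 0.70, or 1.31 ± 0.54 (adjusted p = 0.000448). The embryonic globins were split by array: Hba-x had 1.48, 1.06 and -0.08 (adjusted p = 0.0524) and Hbb-y 1.55, 1.30 and -0.21 (adjusted p = 0.104), so both were above 1 on arrays 1 and 2 and slightly below 0 on array 3. Globin genes are close copies of one another, and probes may not tell them apart. Fth1, the ferritin heavy chain, was higher with 0.75, 0.52 and 1.01 (adjusted p = 0.00766). Klf1, the red cell transcription factor, was lower with -0.58, -0.65 and -0.53 (adjusted p = 0.00064), and so was Car2, a carbonic anhydrase, with -0.70, -0.57 and -0.16 (adjusted p = 0.012). The third member called lower, named after its value was seen, was Tfrc, the transferrin receptor, with -0.49, -0.43 and -0.24 (adjusted p = 0.0216). Without array 3, Hba-x averaged 1.27 (adjusted p = 0.00717) and Hbb-y 1.43 (adjusted p = 0.0187). Fth1 was not called without array 1 (mean 0.77) or array 3 (mean 0.64) or after scaling or quantile normalization of the arrays. Car2 was not called without array 1 (mean -0.37) or array 2 (mean -0.43), after scaling or quantile normalization of the arrays or in a fit of day 21 alone. Tfrc was not called without array 1 (mean -0.34) or array 2 (mean -0.36) or after scaling or quantile normalization of the arrays.

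Epithelial genes were called higher in 9 of 26 and lower in 1, and in 5, 5 and 5 without arrays 1, 2 and 3. Of the keratins of simple epithelia, 3 were called higher. Krt8 had 1.81, 1.61 and 1.58, or 1.67 ± 0.12 (adjusted p = 4.26e-05), its partner Krt18 1.95, 1.69 and 1.31, or 1.65 ± 0.32 (adjusted p = 0.000448), and Krt19 1.22, 1.12 and 1.13, or 1.16 ± 0.06 (adjusted p = 0.000317), whereas Krt7, with 0.34, 0.23 and 0.21, did not pass (adjusted p = 0.0655). Tight junction genes had adjusted p-values nearer the threshold, with Cldn6 at 0.97, 0.69 and 1.06 (adjusted p = 0.0314), Cldn7 at 0.70, 0.64 and 0.81 (adjusted p = 0.0142) and Ocln at 0.72, 1.02 and 0.51 (adjusted p = 0.0367). The epithelial adhesion genes Cdh1, at -0.10, -0.09 and 0.04 (adjusted p = 0.723), and Epcam, at -0.15, -0.20 and -0.28 (adjusted p = 0.402), which ES cells express as well, did not pass. The member called lower, named after its value was seen, was Pkp1, a desmosomal protein, with -0.44, -0.64 and -0.13. Cldn6 was not called without array 1 (mean 0.88), array 2 (mean 1.02) or array 3 (mean 0.83) or after scaling or quantile normalization of the arrays. Cldn7 was not called without array 1 (mean 0.73), array 2 (mean 0.75) or array 3 (mean 0.67) or after scaling or quantile normalization of the arrays. Ocln was not called without array 1 (mean 0.76), array 2 (mean 0.61) or array 3 (mean 0.87) or after scaling or quantile normalization of the arrays. Pkp1 was not called without array 1 (mean -0.39) or array 2 (mean -0.28), after scaling or quantile normalization of the arrays or in a fit of day 21 alone.

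Neural genes were called higher in 4 of 45 and lower in 2, against 9.23% and 10.1% of all genes, and 1, 1 and 7 were higher without arrays 1, 2 and 3. Stmn2, a tubulin-binding protein of neurons, was lower with -1.92, -1.67 and -1.73, or -1.77 ± 0.13 (adjusted p = 2.85e-05). Nnat, an imprinted neural gene, was higher with 1.09, 0.96 and 1.14, or 1.06 ± 0.09 (adjusted p = 1.22e-05), and Fabp7, the fatty acid binder of radial glia, ranged widely with 1.92, 0.76 and 0.08 (adjusted p = 0.0329). The neuron markers Tubb3, Map2, Nefl and Gap43 had means of 0.12, 0.03, 0.09 and 0.35, none of them called. Hox, paired-box and patterning factors were called higher in 4 of 58 and lower in 0, against the same 9.23% and 10.1%. Without array 1 there was 1 each way. Tcf21, a factor of mesoderm around gut, kidney and heart, had 1.61, 1.04 and 0.70, or 1.12 ± 0.46 (adjusted p = 0.00241), and Foxf1, a factor of visceral mesoderm, 0.56, 0.33 and 0.48 (adjusted p = 0.0146). Of 17 trophoblast genes 1 was called higher (5.88%, against 9.23% of all genes), Plac8, with 0.86, 0.79 and 1.08 (adjusted p = 0.0142). Of 25 genes of the primitive streak and early mesoderm 5 were called higher (20%) and 1 lower (4%), against 9.23% and 10.1% of all genes. Without array 1, 1 was called higher (4%, against 3.08% of all features). Among the 5 were Mest and the cardiac factor Isl1 (0.74, 0.43 and 0.14, adjusted p = 0.0332). The 1 called lower was Nodal (-0.77, -0.44 and -0.62, adjusted p = 0.00162). Fabp7 was not called without array 1 (mean 0.42) or array 2 (mean 1.0), after scaling or quantile normalization of the arrays or in a fit of day 21 alone. Foxf1 was not called without array 1 (mean 0.41) or array 3 (mean 0.45). Plac8 was not called without array 1 (mean 0.93), array 2 (mean 0.97) or array 3 (mean 0.83) or after scaling of the arrays. Isl1 was not called without array 1 (mean 0.28) or array 2 (mean 0.44), after scaling or quantile normalization of the arrays or in a fit of day 21 alone.

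**Figure D3:**
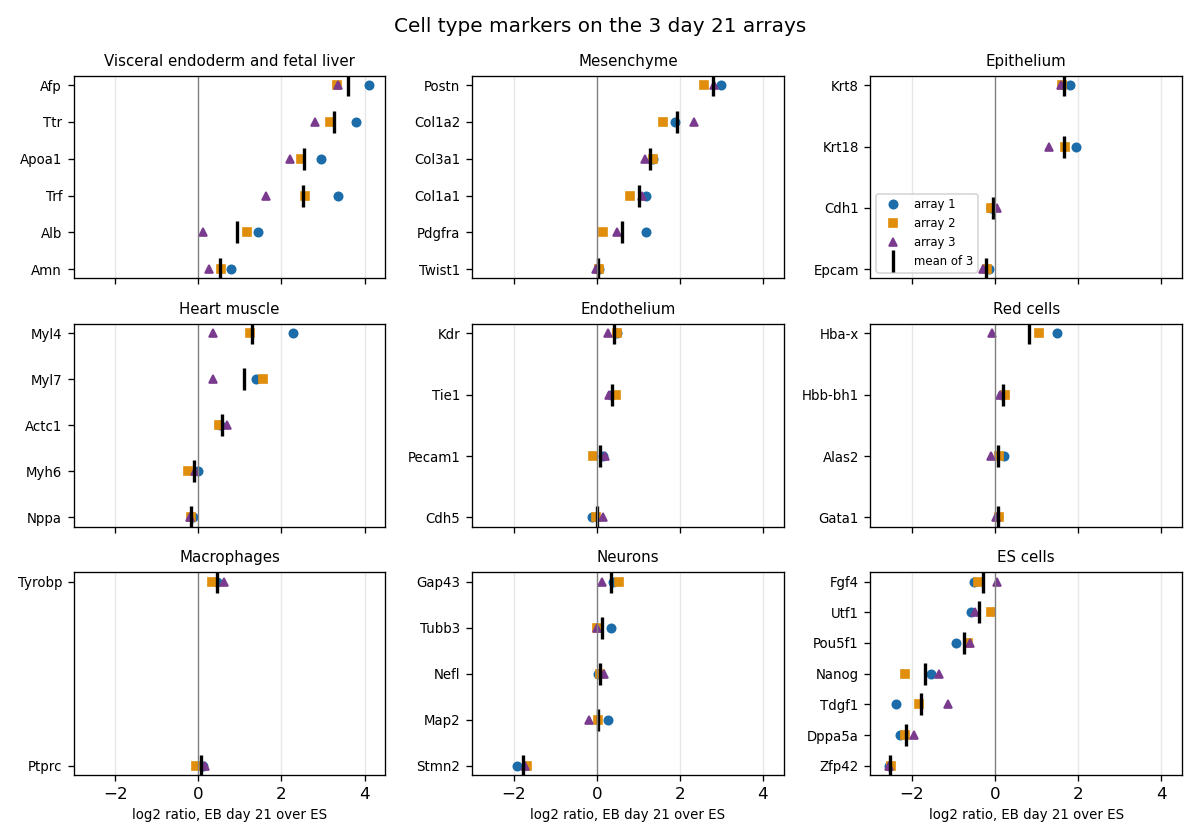
Each panel has the measured markers of 1 cell type, with points for the log2 ratio, EB day 21 over ES, on the 3 arrays and a bar for the mean. All 6 endoderm markers and 5 of 6 mesenchyme markers were called higher and 6 of 7 ES markers lower, whereas none of the 4 measured red cell markers and no neuron marker was called higher.

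Among signalling genes, those of bone morphogenetic protein (BMP), TGF-beta and Id genes were called higher in 11 of 39 and lower in 2, with 5, 4 and 10 higher without arrays 1, 2 and 3. Id2 and Id3, inhibitors of basic helix-loop-helix factors and targets of BMP, had 1.27, 0.97 and 0.83 (adjusted p = 0.000466) and 1.23, 0.95 and 0.64 (adjusted p = 0.00325). Bambi, a decoy receptor, had 1.15, 0.91 and 0.34 (adjusted p = 0.0114), and Fst, which binds activin, 0.83, 0.76 and 0.61 (adjusted p = 0.019). Bmp1, a procollagen protease, was nearest to 0 with -0.12, 0.17 and -0.01. Wnt, Notch, FGF and hedgehog genes were called higher in 4 of 49 and lower in 0, against 9.23% and 10.1% of all genes; without arrays 1, 2 and 3 there were 1, 1 and 4. Fzd2, a Wnt receptor, had 0.69, 0.69 and 0.49 (adjusted p = 0.00315), and Frzb, a secreted Wnt antagonist, 1.0, 0.75 and 0.21 (adjusted p = 0.023). Immediate early genes were higher in 4 of 31 and lower in 2, against the same 9.23% and 10.1%. Without array 1 or array 2 there was 1 higher. Fos had 1.03, 0.94 and 0.85 (adjusted p = 0.00302), Jun 1.23, 1.14 and -0.12 (adjusted p = 0.131) and Klf9, a factor induced by steroid and thyroid hormones, -0.96, -0.86 and -0.77 (adjusted p = 5.06e-05). Bambi was not called without array 1 (mean 0.62) or array 2 (mean 0.74). Fst was not called without array 1 (mean 0.69) or array 2 (mean 0.72) or after scaling or quantile normalization of the arrays. Frzb was not called without array 1 (mean 0.48) or array 2 (mean 0.60), after scaling or quantile normalization of the arrays or in a fit of day 21 alone.

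Antigen presentation and interferon genes were called higher in 3 of 29 and lower in 2, against 9.23% and 10.1% of all genes. Their median was 0.01, and without arrays 1, 2 and 3 there were 1, 2 and 2 higher and 0, 0 and 3 lower. B2m, the light chain of class I molecules, had 0.97, 0.94 and 1.19, or 1.03 ± 0.14 (adjusted p = 0.00443), whereas H2-Eb1, a class II chain, had -0.11, 0.14 and -0.02 (adjusted p = 0.984). Chemokines, cytokines and receptors were called higher in 2 of 38 and lower in 2, against 9.23% and 10.1% of all genes, and without array 1 in 1 each way. Ccl2, a monocyte chemokine, had -1.63, -1.53 and -0.08 (adjusted p = 0.0342), with array 3 near 0, and Tnfrsf1a, a receptor of tumour necrosis factor, 0.57, 0.69 and 0.64 (adjusted p = 0.000943). Ccl2 was not called without array 1 (mean -0.80) or array 2 (mean -0.85), after scaling or quantile normalization of the arrays or in a fit of day 21 alone. B2m was not called after scaling or quantile normalization of the arrays.

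Genes of the cell cycle and of DNA replication were called lower in 41 of 67 and higher in 2, with a median of -0.38, at -0.39, -0.40 and -0.31 on the 3 arrays. Without arrays 1, 2 and 3 the lower count was 22, 24 and 35. Mybl2, a transcription factor of late cell cycle genes, had -1.52, -1.63 and -1.44, or -1.53 ± 0.09 (adjusted p = 5.08e-05). Msh6, a mismatch repair protein, had -1.54, -1.39 and -1.28, or -1.40 ± 0.13 (adjusted p = 6.7e-05), and Orc1, a subunit of the origin recognition complex, -1.20, -0.95 and -0.93, or -1.03 ± 0.15 (adjusted p = 1.08e-05). Ccne1, the cyclin of entry into DNA synthesis, had -1.03, -1.09 and -0.87, or -1.0 ± 0.12 (adjusted p = 0.000202). Ccnd2, a cyclin of the first gap phase, went the other way with 1.74, 1.72 and 1.92, or 1.79 ± 0.11 (adjusted p = 1.81e-05). The other member called higher, named after its value was seen, was Ccne2 at 0.30, 0.35 and 0.09 (adjusted p = 0.0479). Of p53 targets and cell cycle inhibitors 5 of 25 were called higher and 2 lower. Cdkn1c, an imprinted inhibitor, had 0.88, 0.80 and 0.69, or 0.79 ± 0.09 (adjusted p = 0.000607), and Cdkn1a, the inhibitor induced by p53, 0.51, 0.63 and 0.96, or 0.70 ± 0.23 (adjusted p = 0.00162), whereas the p53 targets Ccng1, at -0.27, -0.33 and -0.59, and Gadd45a, at -0.21, -0.33 and -1.26, were called lower. Ccne2 was not called without array 1 (mean 0.22) or array 2 (mean 0.20), on leaving out any of 6 of the 9 arrays of the other days singly, with array medians at 0, with the replicate block, after scaling or quantile normalization of the arrays or in a fit of day 21 alone. Ccng1 was not called without array 1 (mean -0.46), array 2 (mean -0.43) or array 3 (mean -0.30), after scaling or quantile normalization of the arrays or in a fit of day 21 alone. Gadd45a was not called without array 2 (mean -0.74) or array 3 (mean -0.27), after scaling or quantile normalization of the arrays or in a fit of day 21 alone.

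Genes of ribosome assembly in the nucleolus were called lower in 18 of 27 and higher in 0, with a median of -0.51, and in 12, 13 and 17 without arrays 1, 2 and 3. Dkc1, which modifies ribosomal RNA and is part of telomerase, had -1.43, -0.92 and -0.46, or -0.94 ± 0.48 (adjusted p = 0.00249). Npm1 and Ncl, abundant nucleolar proteins, had -0.68, -0.70 and -0.91 (adjusted p = 0.00157) and -0.81, -0.62 and -0.61 (adjusted p = 0.00285). Rrs1, a regulator of assembly, was nearest to 0 with -0.11, 0.06 and 0.04. Translation factors and transfer RNA synthetases were lower in 17 of 34 and higher in 0, with 7, 7 and 16 lower without arrays 1, 2 and 3. Eif2s2, a subunit of an initiation factor, had -0.89, -0.88 and -1.02, or -0.93 ± 0.08 (adjusted p = 4.92e-05), and Farsb, a subunit of the phenylalanine synthetase, -0.73, -0.61 and -0.63, or -0.66 ± 0.06 (adjusted p = 0.000683). The ribosomal proteins themselves were lower in 10 of 55 (18.2%, against 10.1% of all genes) and higher in 0, and the list median was -0.06, -0.09 and -0.28 on the 3 arrays. Array 3 was the lowest in 48 of the 55 (87.3%). Without arrays 1, 2 and 3 in turn 3, 2 and 2 were called lower. These shares of 5.45%, 3.64% and 3.64% were near or below the 3.97%, 4.49% and 8.84% of all features. Rpl7a had -0.31, -0.48 and -0.75 (adjusted p = 0.0376) and Rps18 0.06, 0.05 and -0.12. Many ribosomal protein genes have near-identical pseudogenes that a probe may also bind. Rpl7a was not called without array 1 (mean -0.62), array 2 (mean -0.53) or array 3 (mean -0.40), on leaving out 1 of the arrays of the other days or after scaling or quantile normalization of the arrays.

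**Figure D4:**
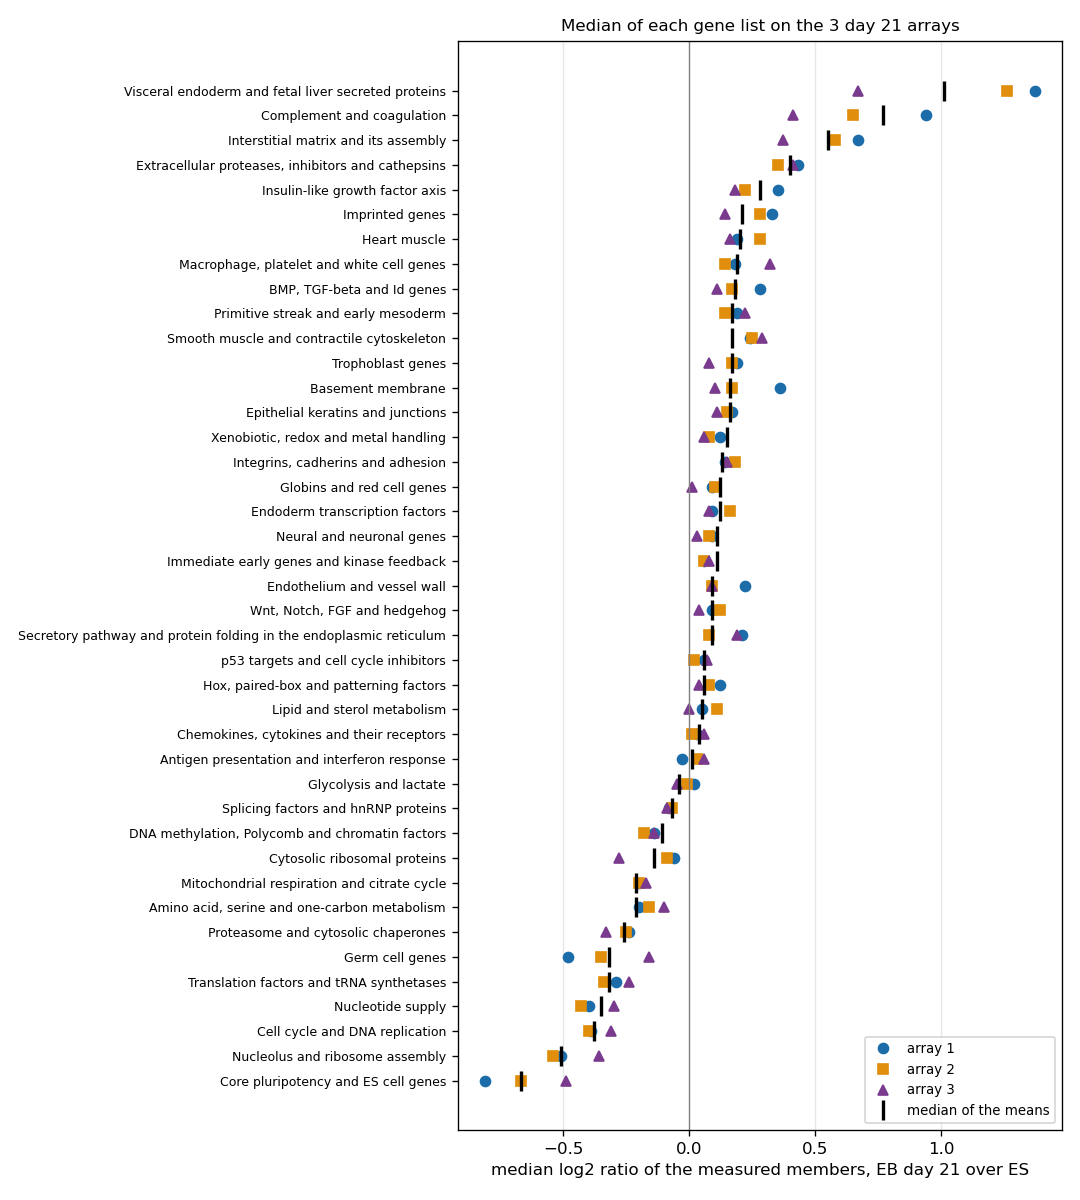
For each gene list the points give the median log2 ratio, EB day 21 over ES, of its measured members on array 1, 2 or 3, and the bar the median of the members' means. The endoderm list has medians of 1.37, 1.26 and 0.67 on arrays 1 to 3, and the ribosomal proteins -0.06, -0.09 and -0.28.

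Metabolic genes were lower in several groups. Of nucleotide supply genes 15 of 25 were called lower and 0 higher, and 9, 10 and 15 lower without arrays 1, 2 and 3. Upp1, a uridine phosphorylase, had -2.05, -1.72 and -1.78, or -1.85 ± 0.17 (adjusted p = 1.57e-05), and Prps1, which makes the ribose donor of nucleotides, -1.41, -1.28 and -1.24, or -1.31 ± 0.09 (adjusted p = 8.42e-06). Gart, a purine synthesis enzyme, averaged -0.85 ± 0.18 (adjusted p = 6.09e-05). Ada, adenosine deaminase, was nearest to 0 with -0.30, 0.06 and 0.07. Amino acid, serine and one-carbon genes were lower in 11 of 30 and higher in 1, Oat, an ornithine aminotransferase named after its value was seen (0.51, 0.58 and 0.89). Asns, asparagine synthetase, had -1.08, -0.98 and -0.70, or -0.92 ± 0.20 (adjusted p = 0.000134), Mthfd1, a folate enzyme, -0.81, -0.92 and -0.66, or -0.80 ± 0.13 (adjusted p = 7.8e-05), and Bcat1, a branched-chain aminotransferase, averaged -0.84 ± 0.13 (adjusted p = 0.000247). Oat was not called without array 1 (mean 0.73), array 2 (mean 0.70) or array 3 (mean 0.55), on leaving out any of 2 of the 9 arrays of the other days singly or after scaling or quantile normalization of the arrays.

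Mitochondrial respiration and citrate cycle genes were called lower in 14 of 48 and higher in 1, and in 6, 8 and 9 without arrays 1, 2 and 3. Idh3a, a subunit of isocitrate dehydrogenase, had -0.79, -0.68 and -1.32, or -0.93 ± 0.34 (adjusted p = 0.00152), and Cs, citrate synthase, -0.90, -0.57 and -0.83, or -0.77 ± 0.17 (adjusted p = 0.00362). The member called higher, named after its value was seen, was Idh2, at 0.31, 0.36 and 0.73. Glycolysis genes were evenly divided, with 4 of 29 higher and 4 lower (13.8% each), against 9.23% and 10.1% of all genes. Without array 1 there were 0 higher. Ldhb, a lactate dehydrogenase subunit, had -1.16, -0.98 and -0.87, or -1.0 ± 0.15 (adjusted p = 7.43e-05), its partner Ldha 0.05, 0.00 and -0.08 (adjusted p = 0.975), and the lactate carrier Slc16a1 0.92, 1.24 and 0.35 (adjusted p = 0.0159). Lipid and sterol genes were higher in 6 of 41 and lower in 7, with 2 higher and 3 lower without array 1. The fatty acid binders split: Fabp4, of fat cells, macrophages and small vessels, had 1.38, 1.77 and 0.80, or 1.32 ± 0.49 (adjusted p = 0.00119), and Fabp5 averaged 0.89 ± 0.23 (adjusted p = 0.00013), against -0.75 ± 0.03 for Fabp3. Idi1, an isoprenoid enzyme, had -0.46, -0.45 and -0.97 (adjusted p = 0.00117). Idh2 was not called without array 2 (mean 0.52) or array 3 (mean 0.33) or after scaling or quantile normalization of the arrays. Slc16a1 was not called without array 1 (mean 0.79) or array 2 (mean 0.64).

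Genes of detoxification, redox and metal handling were called higher in 14 of 49 and lower in 5. Without arrays 1, 2 and 3 these were 10, 8 and 12 higher and 1, 1 and 3 lower. Gpx3, the glutathione peroxidase of serum, had 2.25, 2.06 and 1.88, or 2.06 ± 0.19 (adjusted p = 0.000131), and Gstm1, a glutathione transferase, 1.55, 1.51 and 1.49, or 1.52 ± 0.03 (adjusted p = 0.000489). The metal-binding proteins Mt1 and Mt2 had 1.17, 1.15 and 0.95 (adjusted p = 0.00108) and 1.29, 1.18 and 0.83 (adjusted p = 0.00652). Gsta4, a transferase of lipid aldehydes, went the other way with -0.94, -0.90 and -1.05, or -0.96 ± 0.08 (adjusted p = 1.57e-05). Proteasome and cytosolic chaperone genes were lower in 21 of 48 and higher in 0, and lower in 13, 17 and 15 without arrays 1, 2 and 3. Hspa4, a cochaperone, had -0.96, -0.85 and -0.91, or -0.91 ± 0.05 (adjusted p = 6.09e-05), and Hsp90aa1, the inducible form of a main cytosolic chaperone, averaged -1.19 ± 0.17 (adjusted p = 0.000201) over probes at -1.65 and -0.73. In the secretory pathway 6 of 37 genes were called higher and 2 lower, with 3 higher without array 1 or array 2. P4hb, a disulfide isomerase and collagen hydroxylase subunit, had 0.77, 0.78 and 0.65 (adjusted p = 0.00412). Of splicing genes 4 of 49 were called higher and 3 lower (8.16% and 6.12%), against 9.23% and 10.1% of all genes. Leaving out any 1 of the day 21 arrays left 1 higher. Snrpa1, a U2 particle protein, was lower with -0.44, -0.56 and -0.68 (adjusted p = 0.000568). Mt2 was not called without array 1 (mean 1.0) or array 2 (mean 1.06) or after scaling or quantile normalization of the arrays.

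Day 21 was then compared with the earlier days by contrasts in the same model, in which a dye effect alike on all arrays drops out; the ratios of all days share the ES cells. Against day 15 a single feature was called (0.00936%), where 674 had an unadjusted p under 0.05: Npff, the precursor of neuropeptide FF, which acts on G protein-coupled receptors. It had 1.16, 1.28 and 1.14 on the day 21 arrays, all above its day 15 mean of 0.37, and the difference was 0.83 (SE 0.10, adjusted p = 0.0208). That call was lost in a fit of days 15 and 21 alone, after either rescaling of the arrays and on leaving out any of 8 of the 12 arrays singly, among them every array of days 15 and 21. Same-numbered arrays of days 15 and 21 deviated together, with correlations of 0.237, 0.151 and 0.389. Array 1 of day 15 with array 2 of day 21 (0.139), and array 2 with array 1 (0.182), did so too. A pairing by number is therefore an assumption. Array 3 of both days was also among the arrays with low values at the unnamed features, so number and array set overlap here. With the replicate number as a block in the fit of all 12 arrays, the difference was 0.83 (adjusted p = 0.0882) and 0 features were called. Alb averaged 0.92 at day 21 and -0.02 at day 15 and did not pass, with a difference of 0.94 (SE 0.25, adjusted p = 0.579). Nanog averaged -1.69 at day 21 and -0.73 at day 15, and its difference of -0.96 (SE 0.25, adjusted p = 0.579) did not pass either.

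Against day 8, 146 features were called (1.37%), 80 higher (0.748%) and 66 lower (0.617%). Postn was at 0.01 at day 8, and its difference was 2.79 (SE 0.16, adjusted p = 5.14e-06). The imprinted genes Dlk1 and Mest differed by 1.80 (SE 0.15, adjusted p = 0.000167) and 1.64 (SE 0.15, adjusted p = 0.00024). Of the lists, interstitial matrix had 12 of 47 members higher at day 21 than at day 8. Imprinted genes had 6 of 26 and smooth muscle 5 of 31, whereas endoderm had 3 of 36. Cell cycle genes had 7 of 67 members lower. S100g, already at 2.29 at day 8, differed by 0.36 (SE 0.44, adjusted p = 0.827), which did not pass. Without day 8 arrays 1 and 2 the count was 53 and 49, and without day 21 arrays 1 and 2 it was 54 and 60.

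Against day 4, 624 features were called (5.84%), 280 higher (2.62%) and 344 lower (3.22%). Among the lists, 20 of 47 members of interstitial matrix, 15 of 36 of endoderm and 11 of 27 of complement and coagulation were higher. Lower were 21 of 67 of cell cycle, 16 of 48 of the proteasome and chaperones, 13 of 34 of pluripotency and 12 of 27 of the nucleolus. Itm2a differed by 2.45 (SE 0.26, adjusted p = 0.000588) and Igfbp1 by 2.39 (SE 0.35, adjusted p = 0.00292), both near 0 at day 4. Pycard, the adaptor of inflammasomes, had -2.14, -1.94 and -1.68 at day 21 and a mean of -0.04 at day 4, a difference of -1.88 (SE 0.30, adjusted p = 0.00479). For Klk1, a tissue kallikrein with -2.78, -2.17 and -1.06 at day 21, the day 4 mean was already -1.22. The list medians over days 4, 8, 15 and 21 were 0.06, 0.45, 0.92 and 1.01 for endoderm, -0.06, -0.03, 0.26 and 0.55 for interstitial matrix, -0.02, -0.33, -0.62 and -0.67 for pluripotency and -0.01, -0.09, -0.22 and -0.38 for the cell cycle. Matrix thus had a median near 0 at day 8, when that of endoderm was 0.45. Without day 4 array 1 the count against day 4 was 266, and without day 21 arrays 1 and 2 it was 223 and 264.

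**Figure D5:**
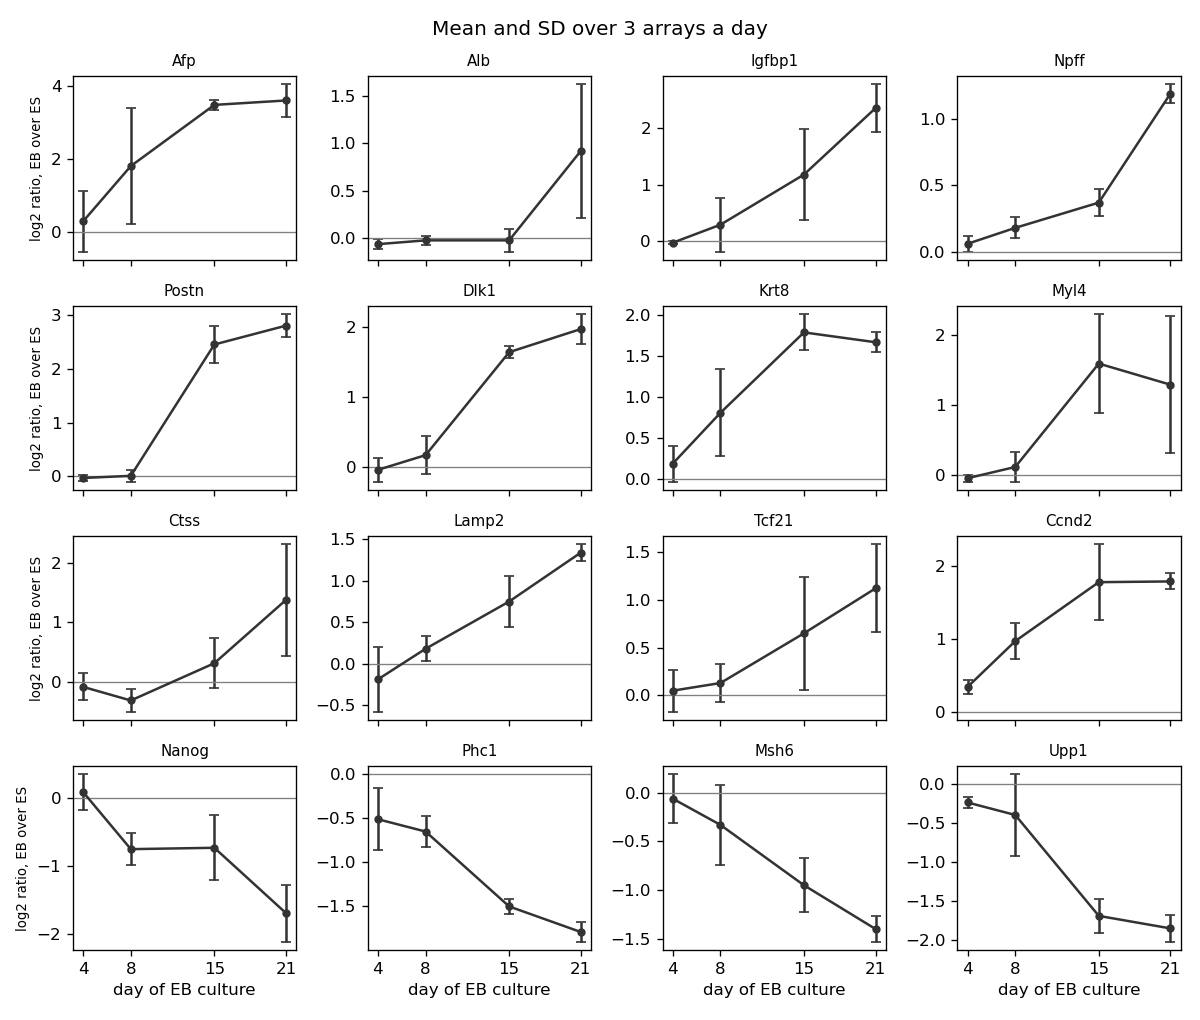
For 16 genes the mean log2 ratio, EB over ES, is plotted against the day of EB culture (4, 8, 15 and 21), with the SD over 3 arrays as bars; the vertical scale differs between panels. Afp is at 3.48 at day 15 and 3.60 at day 21, while Alb is at -0.02 at day 15 and 0.92 at day 21, a difference that did not pass, with day 21 arrays spread between 0.12 and 1.44.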

How the data were processed

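The 12 arrays of the series (3 at each of days 4, 8, 15 and 21 of EB culture) were 2-colour arrays of labelled RNA, made from total RNA by cDNA synthesis and in vitro transcription, per the labels' protocols. The deposited values are normalized log ratios, treated as log2 by convention; the authors' normalization, background correction and log base are not given in the sources used here. Depth does not apply to arrays, and the number of arrays limits the precision. Of 11520 features, 10043 had 1 gene symbol in the platform annotation, 29 several and 1448 none. Probes of a symbol were averaged to 9212 genes and 1477 features were kept alone, so 10689 were tested.

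The mean of each day was fitted to all 12 arrays with limma 3.58.1 in R 4.3.3 (lmFit, eBayes), and the day 21 mean was tested against 0, two-sided, with Benjamini-Hochberg adjustment over all features and a threshold of 0.05. The fit had 8 residual degrees of freedom and 4.35 prior ones. Days were compared by contrasts. Code was tested on simulated data. Genes were named by rule: the 20 largest means each way with a single sign, the 6 largest of each of the 41 lists, the member nearest to 0, the 8 largest non-overlapping differences each way against days 15 and 4, and cell type markers, 313 in all. The members, lists and markers were chosen with earlier results of these data known. Alternatives were quantile normalization, scaling to 1 median absolute deviation, array medians at 0, array weights, a robust prior, days fitted alone, no averaging of probes and each array left out. The array set as a term and genes with a symbol alone were added after seeing the data. The main fit did not pair arrays. As a check, the replicate number was added as a block to the fit of all 12 arrays, which pairs the arrays of all days by number. Same-numbered deviations from the day means correlated by 0.237, 0.151 and 0.389 between days 15 and 21. Between any other days at least 1 same-numbered pair was under 0.1. Arrays 1 and 2 of days 15 and 21 also correlated across numbers, by 0.139 and 0.182, so the pairing is an assumption. Promoters came from RefSeq (GRCm38.p6); a gene counted if any of its listed starts held a motif. The HNF1 half-site, the octamer-family sequence, the CArG box and the TATA box were searched, each on both strands, and a gene was counted once per motif. A full HNF1 palindrome and an HNF4 site were also looked at while motifs were chosen.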

Additional observations from a re-analysis of the deposited data

Results flagged for a closer look

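Differences between day 21 and an earlier day, each tested in limma as a contrast of EB over ES ratios, were picked out because both days share the comparison with ES cells. Against day 15 only Npff was called, by 0.83 (SE 0.10, adjusted p = 0.0208); that call was lost on leaving out any of 8 of the 12 arrays singly, with the replicate block (adjusted p = 0.0882), after scaling or quantile normalization and in a fit of both days alone. Against day 8, 146 features were called, and against day 4, 624.

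The named genes with the largest differences from day 4, whose day 21 arrays did not overlap those of day 4, were the following. Serum proteins and other products of endoderm were higher at day 21: Afp by 3.29 (SE 0.61, adjusted p = 0.00951), Trf by 2.85 (SE 0.56, adjusted p = 0.012), S100g by 2.55 (SE 0.44, adjusted p = 0.00644), Igfbp1 by 2.39 (SE 0.35, adjusted p = 0.00292) and Selenop by 2.35 (SE 0.43, adjusted p = 0.00788). Of other genes, Postn was higher by 2.83 (SE 0.16, adjusted p = 4.34e-06), Nrp1 by 2.52 (SE 0.45, adjusted p = 0.00759) and Itm2a by 2.45 (SE 0.26, adjusted p = 0.000588).

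Genes of ES cells were lower at day 21 than at day 4. Slc7a3 differed by -3.02 (SE 0.71, adjusted p = 0.0271), Nr0b1, an orphan nuclear receptor, by -2.33 (SE 0.28, adjusted p = 0.000936), and Zfp42 by -2.12 (SE 0.19, adjusted p = 0.000123). Dppa5a, an RNA-binding protein, differed by -1.95 (SE 0.18, adjusted p = 0.000222), Gdf3 by -1.80 (SE 0.30, adjusted p = 0.00587), Nanog by -1.78 (SE 0.25, adjusted p = 0.00242) and Fbxo15, an F-box protein, by -1.78 (SE 0.24, adjusted p = 0.00164). Pycard differed by -1.88 (SE 0.30, adjusted p = 0.00479). The calls of Afp and Trf were lost without array 1 of day 21, and that of Slc7a3 without that array and without array 1 or 3 of day 4. The other differences from day 4 given here were called without each of the 12 arrays.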

How the results depend on the processing

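Of 1999 features called at day 21, quantile normalization left 1068 and scaling to 1 spread 971, leaving out 1 array gave 753 (without day 21 array 1) to 2221, and a fit of day 21 alone gave 1390. By at least 1 in size there were 193 features, against 109 after quantile normalization, 100 after scaling and 138 to 259 on leaving out 1 array. Both rescalings also made day 21 values smaller, with the endoderm list median at 0.78 in each, against 1.01. A size of 1 after rescaling is therefore not 1 on the deposited ratios. The single call against day 15 became 0 with days 15 and 21 alone, under quantile normalization, scaling and the replicate block, and 0 to 1 with an array left out. Against day 4 the 624 calls became 395 with days 4 and 21 alone, 374 after quantile normalization, 308 after scaling, 1343 with array weights and 223 to 773 with an array left out. Of the list genes, 476 were called, 298 after scaling and 238 to 517 with an array left out. Array weights gave 2622 calls at day 21 and the array set as a term 2288.

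Same-numbered arrays of different days correlated in their deviations from the day means by -0.140 to 0.389 over 18 pairs and others by -0.322 to 0.186. Of the 12 arrays, 8 correlated best with their own number, which the design does not explain. Array 3 of every day had low values at the 96 unnamed features. What arrays of number 3 share cannot be told apart from that array set. The block, which spans all days, was a check in every comparison. In the comparison with day 15 it changed the call as given above. The replicate block gave 2036 calls at day 21, 614 against day 4 and 485 list genes. Of 227 named calls, 144 held under all 21 settings, 148 without each of the 12 arrays, and 73, 61 and 22 were lost without arrays 1, 2 and 3 of day 21. The fit without averaging of probes gives no single value per gene and is not among these settings. No named gene that was called in the main fit or under a setting changed sign between them. Called features that are not named were not checked for sign.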

Other observations

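Of the called genes in none of the 41 lists, 1297 had a single sign on the day 21 arrays, and among them 47 were higher and 28 lower by at least 1. The genes outside the lists, and the standards and marker after them, were chosen after their values were seen. Ccn4, a secreted target of Wnt signalling, had 1.44, 1.65 and 2.49 on arrays 1 to 3, or 1.86 ± 0.56 (adjusted p = 0.00332). Ccdc80, a matrix-associated protein, had 2.12, 1.75 and 1.24, or 1.71 ± 0.44 (adjusted p = 0.0018). Slc7a9, an amino acid transporter of kidney and gut epithelium, had 2.09, 2.10 and 1.49, or 1.89 ± 0.35 (adjusted p = 0.00545), and without array 1 was not called, at 1.80 (adjusted p = 0.0517). Ehhadh, a peroxisomal enzyme of fatty acid breakdown in liver, had 1.38, 2.03 and 1.56, or 1.66 ± 0.33 (adjusted p = 4.92e-05). Creg1, a glycoprotein of the endosomal and lysosomal compartment, had 1.25, 1.20 and 1.21, or 1.22 ± 0.03 (adjusted p = 4.92e-05), with little spread. All 3 arrays lay above 1 for each of these genes.

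Of the 28 genes lower by at least 1, 4 are given. Aurkc, a kinase of meiotic divisions, had -1.47, -1.34 and -1.01, or -1.27 ± 0.23 (adjusted p = 0.000448), and Morc1, a germ cell ATPase, had -1.21, -0.99 and -1.20, or -1.13 ± 0.12 (adjusted p = 0.000214). Mtf2, which recruits a Polycomb complex to DNA, had -1.36, -1.5 and -0.96, or -1.27 ± 0.28 (adjusted p = 4.92e-05). Plaat3, a phospholipase, had -1.26, -1.12 and -1.51, or -1.30 ± 0.20 (adjusted p = 1.92e-05).

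Genes often used as constant standards had small values: Gapdh had -0.08, -0.20 and -0.32 (adjusted p = 0.368) and Actb 0.42, 0.14 and 0.53 (adjusted p = 0.0483), the second called by a narrow margin. Actb was not called without array 1 (mean 0.33), array 2 (mean 0.47) or array 3 (mean 0.28), on leaving out any of 7 of the 9 arrays of the other days singly, with array medians at 0, with the replicate block, after scaling or quantile normalization of the arrays or in a fit of day 21 alone. Mki67, the usual proliferation marker, had -0.26, -0.22 and -0.02 and did not pass (adjusted p = 0.181), whereas 41 of the 67 cell cycle genes were called lower.

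The TATA box sequence TATAAA stood within 250 bases upstream of 7 of 23 called endoderm genes (30.4%) and of 5 of 16 called matrix genes (31.2%), against 14.3% of all genes in the promoter table. The HNF1 half-site stood in 3 of 16 of the called matrix genes and in 3 of 16 of the pluripotency genes called lower (18.8% each), and the octamer-family sequence in 0 of 23 endoderm genes, a description of these windows.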
